A study of Drosophila melanogaster with 8 samples.

Results

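One library of mutant females, mutant replicate 2, held transcripts of male reproductive genes that were close to absent from the other 7 libraries. The rows described here were chosen by their counts, with at least 100 raw counts in mutant replicate 2 and at most 3 in each of the other 7 libraries. This rule took 120 of 12082 rows that name a gene. Because those counts chose the rows, the high level in this library and the low level elsewhere are a description and carry no test. RNA came from whole adult Drosophila melanogaster females, 1 week old and kept on food of 8% yeast and 9% sugar. Control females carried btl>DHR78, in which the driver of the tracheal FGF receptor gene btl expresses the nuclear receptor gene Hr78 (DHR78). Mutant females carried the same transgene together with the mutant alleles DHR78[1] and DHR78[3]. Each genotype gave 4 libraries, and each library pooled 2 collections of 12 females, or 24 animals, all of which the labels call female. The labels call the mutants rescued, and the transgene acts where the btl driver is active.

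Male fertility in the fly rests on organs that females lack. The testis makes sperm through a transcription program of spermatocytes and spermatids that few other cells use. The accessory glands, the ejaculatory duct and the ejaculatory bulb secrete proteins of the seminal fluid and of the mating plug. Many genes of both systems are transcribed almost exclusively in males.

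Libraries held 19544675 to 33054191 counts, with 26654328 in mutant replicate 2, and 3 counts correspond to 0.0916 to 0.155 CPM (counts per 1000000 counts of the scaled library size). Hr78 was lower in mutants (71.5 ± 1.62 CPM) than in controls (123 ± 4.23 CPM; mean ± SD, n = 4 each), and mutant replicate 2 at 73.1 CPM lay with the other mutants (69.3 to 72.2 CPM). A count of 0 was found for 29 rows in mutant replicate 2 and for 572 to 731 rows in each of the others. The smallest total of a row over all 8 libraries was 10 counts, and 805 rows had fewer than 10 counts in the other 7 libraries together, 111 of the 120 members among them. The same rule applied to each of the other 7 libraries in turn took 0 rows.

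The 120 members summed to 38205 counts in mutant replicate 2, which is 0.143% of that library (exact 95% binomial interval 0.142% to 0.145%, counting error only). In the other libraries the same rows summed to 60, 92, 51 and 103 counts in controls 1 to 4 and to 99, 52 and 45 counts in mutants 1, 3 and 4. Of 840 values outside mutant replicate 2, 492 (58.6%) were 0, and 9 members had no count in any of the 7 libraries. In mutant replicate 2 the members ranged from 100 to 5436 counts with a median of 171, and the 10 with the most counts held 40.7% of the sum. The members are 117 distinct patterns of counts, since 6 rows form 3 identical pairs.

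**Figure D1:**
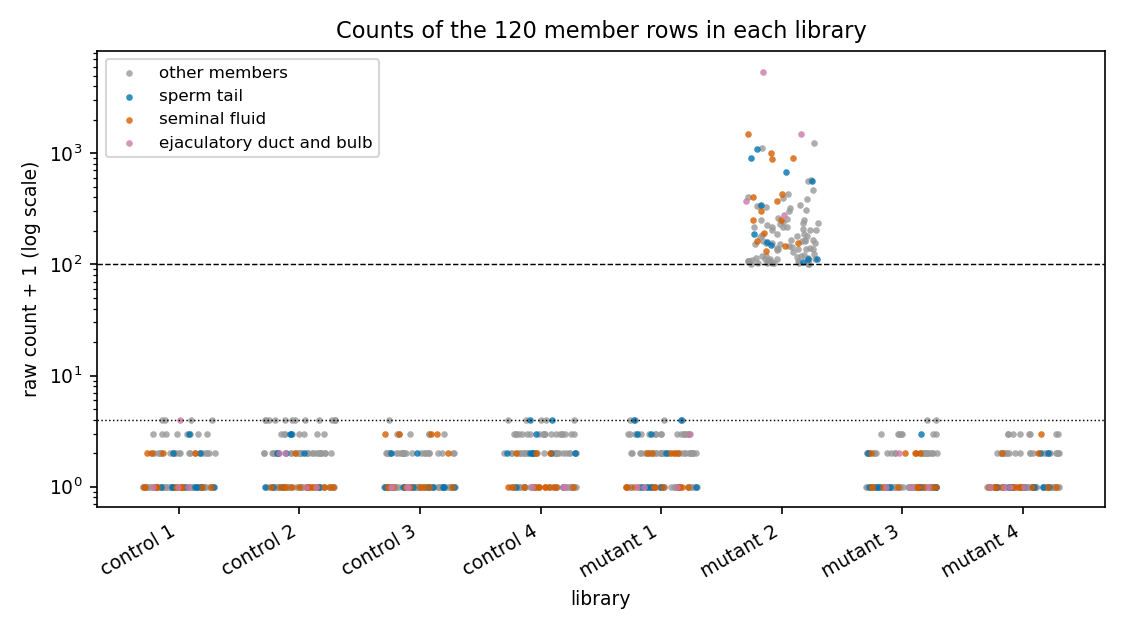
Raw counts plus 1 (log scale) of the 120 member rows, 1 point per row, in each of the 8 libraries, coloured by the group of the gene. The dashed and dotted lines mark the thresholds of 100 and 3 counts that chose the rows, so the gap between mutant replicate 2 and the rest and the lower end of the spread in that library are set by the choice. Ebp at 5436 counts is the highest point.

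The label of male-type transcripts was set beside lists of genes of male and of female tissues, made with earlier results known. Of the 120 members, 0 stand in the list of genes of yolk, egg shell and spermathecae. Those 22 genes all had more than 3 counts in each of the other 7 libraries, so the rule could not take them. In the lists of male reproductive genes stand 34 members, where 149 of all 12082 rows do. These are 15 of 50 listed rows for seminal fluid, 4 of 6 for ejaculatory duct and bulb and 11 of 23 for the sperm tail. For sperm chromatin they are 1 of 9, for genes transcribed after meiosis 1 of 21, for testis paralogs 2 of 28 and for spermatocyte regulators 0 of 12. A further 22 rows have a gene name, some of them known from seminal fluid or spermatogenesis, and 64 carry only a CG number. The sources used here give no tissue or family for those 64, which held 14827 of the 38205 counts (38.8%), so the label is borne by named genes and not by every member.

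Genes of the ejaculatory duct and bulb gave 4 members, 7578 raw counts and 19.8% of the member total. Ebp, a protein of the ejaculatory bulb that forms part of the mating plug, had 3, 0, 0 and 0 counts in controls 1 to 4 and 2, 5436, 1 and 0 in mutants 1 to 4. It alone gave 14.2% of the member counts. EbpII, a neighbouring bulb gene, had 1492 counts in mutant replicate 2 and 0 in each of the 7 others. Dup99B, a duct peptide related to the sex peptide, had 370 counts there, 1 in control 2 and 0 in the other 6 libraries. Anp (andropin), an antibacterial peptide of the duct, had 280 counts, again with 1 in control 2 and 0 elsewhere. The rule fixes that all 4 are near 0 elsewhere, and in mutant replicate 2 all 4 lay above the median member.

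Genes of the accessory gland and seminal fluid gave 15 rows for 14 genes and 7082 counts (18.5% of the member total), with 132 to 1499 counts per row in mutant replicate 2. Sfp87B, a seminal fluid protein, had the most raw counts of them, with 0 counts in all 4 controls and 0, 1499, 1 and 0 in mutants 1 to 4. Sfp60F had 1003 counts in mutant replicate 2, 1 in control 4 and 0 elsewhere. SP, the sex peptide that changes egg laying and receptivity of mated females, had 154 counts in mutant replicate 2 and 0 in each of the other 7 libraries. Acp26Ab, the neighbour of the ovulin gene, had 146 counts there against 0 or 1 elsewhere. Acp76A, a serpin of the seminal fluid, had 132 counts against 1 in control 1 and 0 in the rest.

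Some seminal fluid genes that belong to tandem families came in sets, and the thresholds divided others. Mst57Da and Mst57Db had 900 and 892 counts, and their relative Mst57Dc had 192. Acp53C14a and Acp53C14b had 430 and 399 counts, while Acp53C14c, with 25, missed the minimum. Acp53Ea had 324 counts but was left out by 4 counts in control 3. Acp33A stands in the table under 2 CG numbers with the same 249 counts in mutant replicate 2 and 0 in every other library, so it is 1 gene counted under 2 rows. Sfp24Bb had 374 counts, while Sfp24Ba with 84 and Sfp24Bd with 17 missed the minimum. BG642163 had 301 counts and Acp54A1 had 162. Outside the list, Spn77Bb (a serpin), Obp51a (of the odorant-binding family) and lectin-30A (a C-type lectin) are secreted proteins known from seminal fluid. They had 431, 338 and 140 counts in mutant replicate 2 and at most 3 in any other library.

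Sperm tail genes gave 11 members and 4389 counts (11.5% of the member total). The leucyl aminopeptidases of the sperm, which fill the paracrystalline material of the mitochondrial derivatives, had the most raw counts of these. Their relative loopin-1 had 1, 2, 0 and 3 counts in controls 1 to 4 and 3, 1086, 2 and 1 in mutants 1 to 4. S-Lap7 had 907 counts in mutant replicate 2, S-Lap3 had 677 and S-Lap8 had 560, with at most 3 counts in any other library. The family reaches beyond the members, for S-Lap4 had 757 counts but 4 in mutant 1, and S-Lap1 had 1226 counts against 4 to 14 in the other libraries. S-Lap2 had 596 counts against 6 to 22, and S-Lap5 had 71 counts against at most 3. All 7 S-Lap rows of the table and loopin-1 were thus highest in mutant replicate 2, and the thresholds of the rule divide the family, by a few counts in other libraries for S-Lap1, S-Lap2 and S-Lap4 and by the minimum for S-Lap5.

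Proteins with repeats of cysteine, glycine and proline, which coat the sperm tail, were members as a cluster. Mst84Da, Mst84Db, Mst84Dc and Mst84Dd had 105, 148, 159 and 111 counts in mutant replicate 2. The related Mst98Ca and Mst98Cb had 339 and 187. Mst87F, of the same family, had 221 counts but was left out by 4 counts each in control 2 and mutant 1. Don juan (dj), a protein of the sperm tail along the mitochondrial derivatives, had 110 counts, 1 in control 2 and 0 elsewhere. In the sperm nucleus, Mst33A, a protamine-like protein, had 145 counts and 0 in the 7 other libraries. The nucleosome assembly protein mil (milkah) had 165 counts against 0 to 3.

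Paralogs of common enzymes, carriers and other proteins, some of them known from the male germ line, formed another group of 11 named members with 100 to 333 counts. Only Hsp60B and Pglym87 of these stand in the list of testis paralogs. Hsp60B, a mitochondrial chaperone needed for sperm individualization, had the most raw counts, with 333, 3 in control 2, 1 in control 3 and 0 elsewhere. Pglym87 (phosphoglycerate mutase), Hex-t2 (a testis hexokinase) and Dic2 (a dicarboxylate carrier) had 106, 111 and 106 counts. The sugar transporter gene sut4 and the gene knon, a paralog of an ATP synthase subunit that shapes the mitochondria of spermatids, had 106 counts each. Klp59C, a kinesin that shortens microtubules, had 129. The citrate transporter paralog Indy-2 had 152 counts, as did the row CG33934 next to it, and both rows are the same in all 8 libraries. Menl-1 and Menl-2, paralogs of malic enzyme that lie side by side, share 117 counts and are also the same in all 8 libraries, so their reads cannot be told apart in this table.

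Relatives of most of these genes, and of mil and Spn77Bb, mostly lay within the range of the other libraries in mutant replicate 2. Of 11 relatives, chosen after the values were seen, 9 had a CPM in mutant replicate 2 inside the range of the other 7 libraries. Most rows lie inside this range, since over all rows 18.5% lay above it and 9.32% below it. The count of 9 is therefore read no further. Pglym78 was at 294 CPM in mutant replicate 2 and at 253 to 308 CPM in the others, and Hex-A at 207 CPM against 202 to 224 CPM. Spn77Ba at 29.6 CPM lay just above the others (25.7 to 29.2 CPM) and Indy at 200.2 CPM just below (206 to 220 CPM). Per kilobase of exon, Pglym87 had 97.7 counts in mutant replicate 2 where Pglym78 had 7084, and Hex-t2 had 70.7 where Hex-A had 1368. Spn77Bb was the exception in level, with 371 counts per kilobase where Spn77Ba had 375. In the comparison of genotypes, Dic1 rose by 0.33 on the log2 scale (standard error 0.06, adjusted p = 0.00502) and eIF4H1 fell by 0.26 (standard error 0.05, adjusted p = 0.00680), both by edgeR's quasi-likelihood test. Without mutant replicate 2 these log2 fold changes were 0.34 (adjusted p = 0.00718) and -0.28 (adjusted p = 0.0102). The other 9 relatives did not pass the threshold of 0.05. With all libraries, 8.46% of all genes tested were called higher in mutants and 11.1% lower.

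Regulators of late spermatids were also among the members. The inhibitor of the caspase-activating ubiquitin ligase, soti (scotti), had 109 counts in mutant replicate 2, 1 in control 3, 1 in mutant 4 and 0 elsewhere. The protein kinase gene Tssk, of the testis-specific serine kinase family, had 102 counts against 0 to 2. The testis gene hydra had 154 counts and is 1 of 4 members on the X chromosome. Among non-coding members, lncRNA:CR9284 had 334 counts in mutant replicate 2 and 1 in control 1, and lncRNA:CR32690 had 102. Other named members are msopa with 186 counts, spaw with 231, ssp5 with 166, ymp with 137 and dbf with 106.

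Among members with only a CG number, CG31872 had 1231 counts in mutant replicate 2 and 1 in control 3. CG17097 had 1116 counts there and 0 to 3 elsewhere. CG3213, CG2127 and CG12860 had 574, 561 and 470 counts. These 5 stand among the 15 members with the most counts, and the other 59 had 100 to 402 counts.

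**Figure D2:**
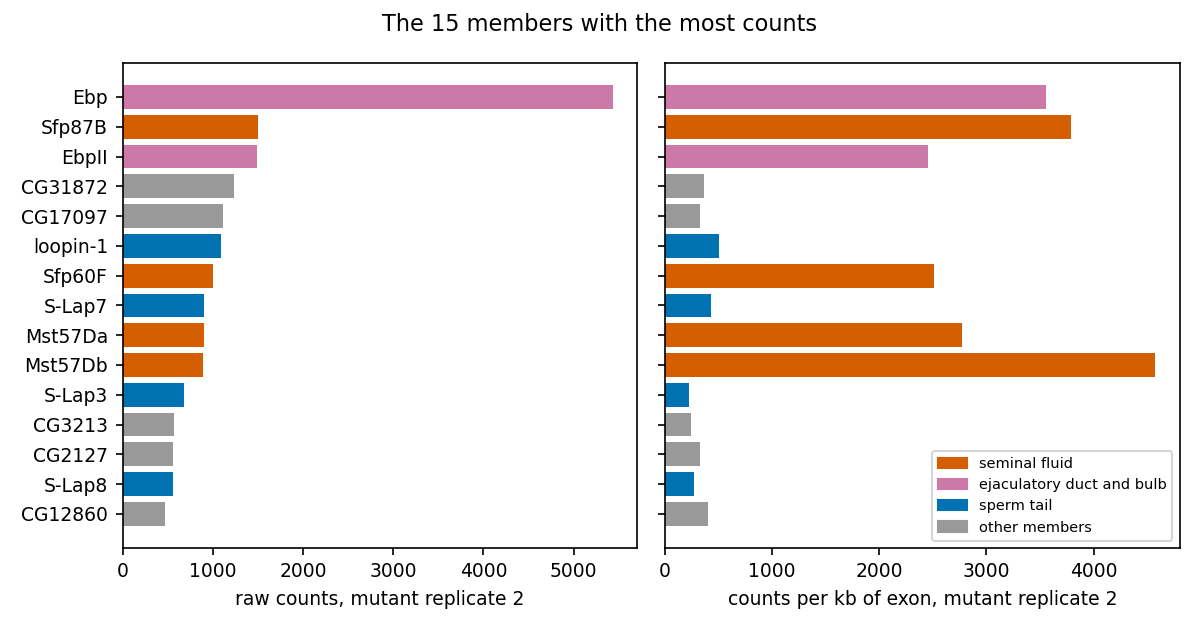
The 15 members with the most counts in mutant replicate 2, as raw counts (left) and as counts per kilobase of exon (right), coloured by group. Ebp leads by raw counts (5436), whereas Mst57Db (4574) and Sfp87B (3785) lead per kilobase and loopin-1 (507) and CG31872 (362) are far lower on that scale.

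A comparison of levels between genes needs counts per kilobase of exon, which used exon lengths of the Ensembl annotation for 118 members. On this scale secreted proteins of the accessory gland, duct and bulb stood first. Mst57Db was at 4574 counts per kilobase, Sfp87B at 3785, Ebp at 3555, Mst57Da at 2769, Sfp60F at 2514 and EbpII at 2454. Sperm tail genes were lower than these, with loopin-1 at 507, Mst84Dc at 438, S-Lap7 at 427 and dj at 90.9 counts per kilobase. The groups overlapped, however. The seminal fluid genes Acp26Ab at 290, BG642163 at 198 and Acp76A at 110 lay below loopin-1, Mst84Dc and S-Lap7. The median of all 118 was 156 counts per kilobase. These are levels in 1 library, so their order has no replicate.

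Beyond their counts, members shared features of the gene that the rule did not use, given here without a test since the set was chosen with results known. Of 118 members placed on a chromosome arm, 4 (3.39%) lay on the X, against 1481 of 8889 (16.7%) of the other rows with at least 100 counts in mutant replicate 2. Arms 2L and 3R held 32 (27.1%) and 37 (31.4%) of the members, against 18.2% and 24.5% of those other rows. A single block of exon was annotated in 42 of 118 members (35.6%), against 9.54% of the other rows. The median of total exon length per gene was 1204 bases for the members and 2151 bases for the other rows. It was 396 bases for the 15 rows of seminal fluid genes.

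**Figure D3:**
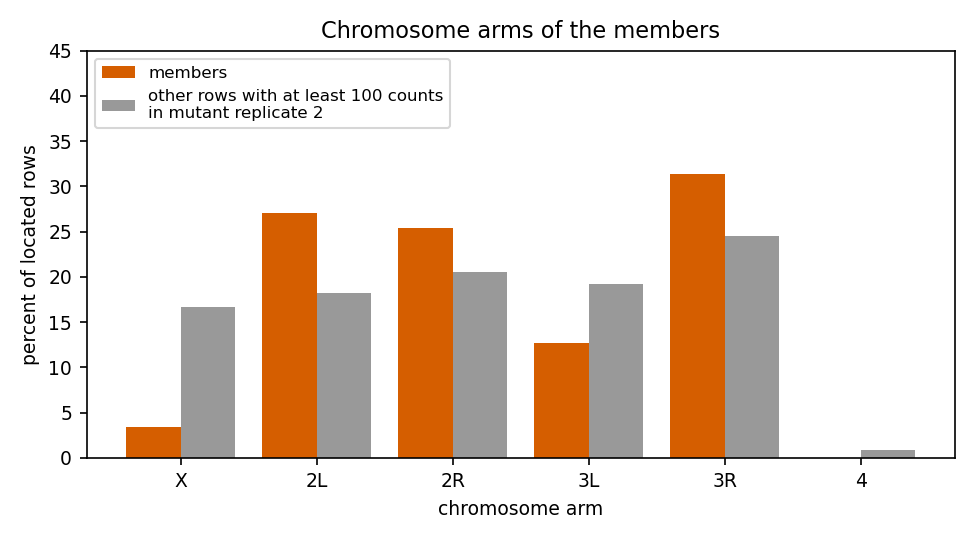
Percent of rows on each chromosome arm (Release 6 annotation) for the 118 located members and for the 8889 located other rows with at least 100 counts in mutant replicate 2. The X chromosome holds 3.39% of the members and 16.7% of the other rows.

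Some members were neighbours in the genome, which is given without a share for other rows. Of 116 protein-coding members with a place in the gene order, 40 rows fell into 16 groups in which each lay within 3 protein-coding genes of the next. Menl-1 with Menl-2 and Indy-2 with CG33934 are pairs of identical rows among these groups, and Acp33A enters as 2 rows at 1 place. The bulb genes Ebp and EbpII lie next to each other on 2R, followed by the seminal fluid gene Sfp60F, with CG30430 (106 counts) 3 genes further on. The 4 Mst84D genes form an unbroken run on 3R. On 3R too, Mst57Da, Mst57Db and Mst57Dc lie within 4 genes, and Mst98Ca is next to Mst98Cb. S-Lap8, knon and loopin-1 stand within 4 genes on 2R, which puts sperm mitochondrial proteins of unlike families side by side. CG31872, CG17097 and dbf stand within 4 genes on 2L, CG9029 (326 counts) is next to Acp26Ab, and CG42481 (263 counts) lies 2 genes from SP on 3L.

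The rows just inside and just outside the thresholds show how sharp the set is. The 5 members with the fewest counts were lncRNA:CR32690 (102), CG4375 (101), eIF4H2, CG13700 and CG7634 (100 each). Just under the minimum were CG15286, cola and swif with 98 counts each and CG1690 and CG7309 with 97. In all, 168 rows had 50 to 99 counts and 693 had 10 to 99 counts in mutant replicate 2 with at most 3 elsewhere. On the other side, 26 rows had at least 100 counts in mutant replicate 2 and a highest count of 4 elsewhere. The highest of these were Acp36DE with 1732 counts, S-Lap4 with 757, CG8701 with 536, w-cup with 511 and CG12861 with 475. Acp36DE, a large seminal fluid protein needed for sperm storage, had 1, 1, 4 and 3 counts in controls 1 to 4 and 2, 1732, 2 and 3 in mutants 1 to 4, so only Ebp among the members had more raw counts.

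Listed male genes that the rule did not take, because they missed one of its thresholds, were counted in the same way. Of 115 such rows, 107 had their highest CPM in mutant replicate 2, and 64 were at least 5 times the level of each other library (with 3 counts as the lowest level allowed). Over all 12082 rows these shares were 18.5% and 6.35%. For 60 of the 115 rows, however, the other 7 libraries together held fewer than 10 counts, the smallest row total in the table. These rows reached that total only through mutant replicate 2. This favoured a high value there, which is therefore not read as a result.

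The remaining 55 rows reached 10 counts without mutant replicate 2, a division made after the values were seen. Of these, 47 were highest in mutant replicate 2 and 20 were at least 5 times the level of each other library, against 12.7% and 1.91% of the 11277 rows of the table with 10 counts or more in the other libraries. Among them were 12 seminal fluid genes, of which 12 were highest in mutant replicate 2 and 7 at least 5 times so. For the sperm tail these numbers were 8 and 6 of 9, and for testis paralogs of housekeeping proteins 12 and 4 of 12. Comet and cup genes, transcribed after meiosis, had 6 and 2 of 8, and sperm chromatin genes 2 and 1 of 2. The ejaculatory duct and bulb genes EbpIII and Est-6 had 2 and 0 of 2. Among 10 regulators of spermatocyte transcription and meiosis 5 were highest there and 0 at least 5 times so.

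Named genes of these lists show the range. Mst77F, a sperm chromatin protein, had 377 counts in mutant replicate 2 and 1 to 6 elsewhere. The testis tubulin gene betaTub85D had 663 counts and 2 to 10 elsewhere. Acp26Aa, which encodes ovulin, had 511 counts and 0 to 5 elsewhere. Genes with more counts in the other 7 libraries showed smaller gaps. The meiotic phosphatase gene twe was at 106 CPM in mutant replicate 2 and at 82.8 to 108 CPM in the others, so the values overlapped. The postmeiotic gene m-cup was at 68.5 CPM against 59.4 to 68.6 CPM, and EbpIII, a bulb protein that other tissues also make, at 400.4 CPM against 284 to 393 CPM. The cytochrome c gene of the testis, Cyt-c-d, was at 11.4 CPM against 6.87 to 8.87 CPM.

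**Figure D4:**
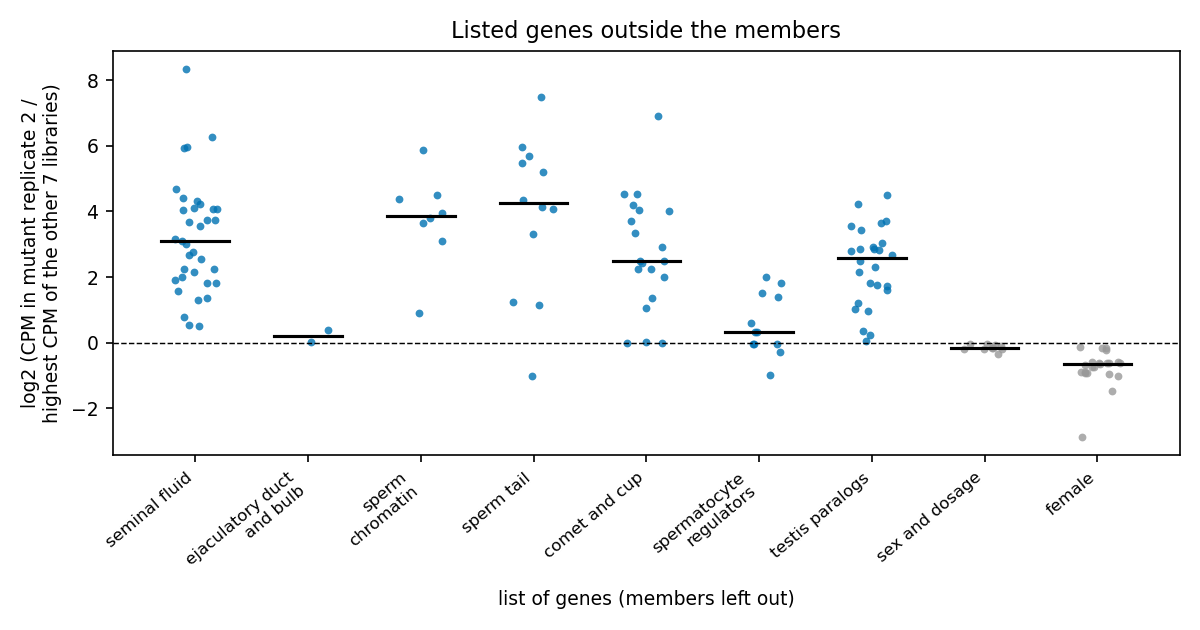
For each listed gene outside the 120 members, log2 of its CPM in mutant replicate 2 over the highest CPM of the other 7 libraries, where counts under 3 in those libraries are raised to 3. Many of these rows had under 10 counts in the other libraries together, which favoured a high ratio for them. Black bars mark medians, which lie at 4.24 for the sperm tail, 3.09 for seminal fluid, 0.33 for spermatocyte regulators, -0.17 for sex determination and dosage compensation and -0.66 for female genes. Since the ratio is to the highest library, a negative value in the last of these lists means only that mutant replicate 2 was not the highest.

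Female genes and genes of sex determination mostly lay within the range of the other libraries. Of 22 listed genes of yolk, egg shell and spermathecae, 20 had a CPM in mutant replicate 2 inside the range of the other libraries, 0 lay above it and 2 below it. Across all rows, 18.5% lay above it and 9.32% below it. Yolk protein gene Yp1 was at 10628 CPM in mutant replicate 2 and at 10828 to 16314 CPM in the others, so it was the lowest there. Yp2 was at 6717 CPM against 6140 to 10488 CPM, and Yp3 at 5312 CPM against 4851 to 8027 CPM. Of 10 rows of sex determination and dosage compensation, 9 lay inside the range. Among them was Sxl, the female-determining splicing regulator, at 236 CPM in the row of CG18350 (219 to 245 CPM in the others). The dosage compensation gene msl-2 lay below the range, at 9.53 CPM against 9.90 to 12.2 CPM. The male dosage compensation RNAs roX1 and roX2 and the fertility genes of the Y chromosome had no matching row and were not analysed here. In RNA of whole animals the number of cells of a type and the RNA per cell cannot be told apart. How male transcripts came into this library was not tested.

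The comparison of mutants with controls did not see the members. None of the 120 passed edgeR's filter on low counts, with or without mutant replicate 2, so 0 were tested, where 8.46% of 10525 tested genes were called higher in mutants and 11.1% lower (adjusted p under 0.05, edgeR quasi-likelihood, Benjamini-Hochberg). Without mutant replicate 2 these shares were 6.8% and 9.37%. Without the filter all 120 entered and 0 were called, with a smallest adjusted p of 0.105 by edgeR, while 6.46% of all rows were called higher and 8.5% lower. At an unadjusted p under 0.05 there were 74 of the 120, and 31.6% of all rows. DESeq2 gave no p-value for any of the 120. Since the rule used these libraries, nothing is read from these counts beyond the way a single library enters the test.

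Male genes outside the members were tested in part. Of the 115 listed rows, 26 passed the filter, and 3 of them were called higher and 1 lower in mutants. Over all genes tested, 8.46% were called higher and 11.1% lower, so the number of calls is not read as a result about male genes. The median log2 fold change of the 26 was 0.40 with all libraries and 0.06 without mutant replicate 2, against 0.01 over all genes tested in both fits. S-Lap2, for instance, went from a log2 fold change of 3.36 (adjusted p = 0.184, edgeR) to -0.01, and Porin2, a testis paralog of a mitochondrial pore, from 1.57 (adjusted p = 0.369, edgeR) to -0.70. BG642312, a seminal fluid gene, went from 1.72 (adjusted p = 0.261, edgeR) to -0.08. None of these passed the threshold, but their log2 fold changes rested on mutant replicate 2.

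The 4 calls held without that library. Rbp4, an RNA-binding regulator of spermatocytes, was at 0.310 to 0.684 CPM in the controls and at 1.37, 1.72, 1.11 and 1.17 CPM in mutants 1 to 4, with a log2 fold change of 1.64 (standard error 0.29, adjusted p = 0.00324, edgeR) and of 1.50 without mutant replicate 2 (adjusted p = 0.00555). The proteasome paralog Rpt3R rose by 0.94 (standard error 0.24, adjusted p = 0.0208) and by 0.81 without that library (adjusted p = 0.0440), but missed the threshold without control replicate 3 (adjusted p = 0.0511) and without the filter (adjusted p = 0.0660). EbpIII rose by 0.34 (standard error 0.06, adjusted p = 0.00325), and by 0.31 without it (adjusted p = 0.00798). Tektin-C, a filament protein of cilia and sperm tails, fell by 1.02 (standard error 0.13, adjusted p = 0.000519) and by 1.11 without it (adjusted p = 0.000512, all by edgeR). Without mutant replicate 2 the germline gene bol also passed, with a log2 fold change of -0.28 (adjusted p = 0.0308), against -0.07 (adjusted p = 0.792) with it. In bol, mutant replicate 2 was at 31.3 CPM, the other mutants at 18.0 to 21.2 CPM and the controls at 22.9 to 24.9 CPM. The controls and the other 3 mutants thus separate only when mutant replicate 2, which lay above both, is set aside. In every other fit bol did not pass (adjusted p = 0.622 to 0.976, edgeR or DESeq2), so no difference between genotypes is read from it.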

How the data were processed

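PolyA RNA of whole flies was sequenced. The authors deposited 1 table of raw counts for genes in 8 libraries, and its columns were assigned by name, leaving 0 unmapped. Build dm3 and DESeq appear in the submitters' processing notes. How reads were aligned, counted or assigned to strands is not given in the sources used, so reads of overlapping genes or close copies may have been split or shared. One of 12083 rows names no gene (0.0154% to 0.0176% of counts) and was left out.

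CG numbers were matched to symbols, arms and gene order in the RefSeq table of the Release 6 assembly (11482 by locus tag, 456 by synonym, 84 to several genes, 60 to none), and no coordinates are given since the builds differ. Of the 120 members, 118 matched. Exon lengths are the total of the merged exons of each gene in the Ensembl annotation.

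Tests used R 4.3.3 with edgeR 4.0.16 (robust quasi-likelihood, filterByExpr with a minimum count of 10, TMM, two-sided, Benjamini-Hochberg, threshold 0.05) and DESeq2 1.42.0 as an alternative. Standard errors were derived from the log2 fold change and the F value. The edgeR step was tested on simulated data. Python 3.11.15, pandas 2.3.3 and matplotlib 3.10.9 served for summaries and plots. CPM are counts per 1000000 counts of the TMM-scaled library size, and binomial intervals are Clopper-Pearson (scipy 1.17.1). Replicates are those the labels call biological, each a pool of a pair of collections.

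The members and all gene lists were chosen with earlier results of these data known. Genes named are the 15 members with the most counts, up to 6 members of each list, rows at the thresholds, the top non-member of each male list, Yp1 to Yp3 and Hr78. The other genes named were chosen after their values were seen. One gene, Acph-1, was caught by a list's pattern by mistake and dropped.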

Additional observations from a re-analysis of the deposited data

Results flagged for a closer look

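A single library far from the other 3 of its genotype (a gap to the nearest library beyond Dixon's 95% critical share of the range, which chance gives in about 1 of 20 groups) was looked for in the summed levels and in the named genes outside the members. It was always mutant replicate 2 that stood apart among mutants. The sums are of rows chosen for many counts in that library and few elsewhere, so their gaps follow from the choice and are not to be read against chance. The gap was 0.999 of the range for the sum of all 120 members and 1 (rounded) for the sums of duct and bulb genes and of seminal fluid genes. It was 0.999 for members with only a CG number, 0.998 for the sums of sperm tail and of sperm nuclear genes, 0.996 for those of the other secreted proteins, germline paralogs and named genes without a stated role, 0.995 for the non-coding RNAs and 0.993 for the spermatid regulators. Singly, 120 of 120 members showed it among mutants, which their choice brings with it.

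Named genes outside the members were also picked by their counts in mutant replicate 2, so their gaps are a description. The gap was 0.999 for Acp36DE, 0.997 for S-Lap1 and S-Lap4, 0.994 for CG8701, 0.993 for w-cup and CG12861 and 0.992 for Mst77F. For CG15286, cola, swif and CG7309 (0.989 each) and CG1690 (0.988), which just missed the minimum of 100 counts, the choice fixed it as for the members. Among controls, 41 of 120 members and CG15286, CG7309 and w-cup (gap 1 each) had a single library apart at counts of at most 3. At such counts a single read in 1 library and none in the rest already gives a gap of 1. These numbers are therefore not to be read against chance either.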

How the results depend on the processing

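The size of the set follows its thresholds. It was 288 rows with a minimum of 50 counts in mutant replicate 2 and 52 with a minimum of 200, 9 with a maximum of 0 elsewhere and 189 with a maximum of 10. The share of that library's counts was 0.186%, 0.109%, 0.0110% and 0.214% under these choices. Counting identical rows once gave 117 rows and 0.141%. No member was called in any of the 13 alternative fits, but DESeq2 gave no p-value for any and only the fit without a filter tested them. Calls among listed male genes outside the members numbered 3 to 5 when any 1 library was left out. EbpIII, Rbp4 and Tektin-C passed in every fit. Rpt3R did not pass without control replicate 3 or without the filter, and Est-6 (adjusted p = 0.0508) passed with DESeq2, with upper quartile scaling and without control replicate 1 (adjusted p = 0.0108 to 0.0422). Limiting listed male genes outside the members to rows with 10 counts or more in the other libraries, an alternative chosen after seeing the data, moved those highest in mutant replicate 2 from 107 of 115 to 47 of 55, and those at least 5 times each other library from 64 to 20. Over all genes there were 2063 calls, 1476 to 1702 when 1 library was left out, and 1499 higher and 872 lower with upper quartile scaling (890 and 1173 with TMM). With the replicate number as a block there were 2405 calls, 0 of the members and 4 of the listed male genes. Same-numbered libraries did not deviate together (correlations -0.10 to 0.21), so the numbers were not treated as pairs. Values of the members come from 1 library, so they carry no replicate error.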

Other observations

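Control replicate 2 had a much smaller set of its own, with 14 rows of 10 to 50 counts that had at most 3 counts in every other library. The highest were CG12480 with 50 counts and CG14265 with 44, and the larval cuticle gene Lcp65Ac had 12. Mutant replicate 2 was at 0 or 1 in all 14.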
